A study of Mus musculus with 24 samples.

Results

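Chromatin accessibility was followed at 10 genes, Acod1 and 9 genes of glucose uptake, glycolysis and lactate export (Slc2a1, Hk1, Hk2, Hk3, Pfkfb3, Pfkp, Pkm, Ldha and Slc16a3), in mouse bone marrow-derived macrophages (BMDMs). A consensus peak, a region of open chromatin merged over all libraries, was taken where it overlapped the body of one of these genes or 20 kb either side, and was given to the nearest of the 10. This rule gave 165 of the 184158 consensus peaks, from 8 at Hk3 to 28 at Pfkp. Of these, 159 passed the filter on low counts, and the 6 that did not lay at Hk3 (3), Pfkp (2) and Pfkfb3 (1).

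The 24 ATAC-seq libraries fell into 4 groups of 6, which were WT and AhR-KO cells left unstimulated and the same genotypes given LPS (WT LPS and AhR-KO LPS). AhR-KO mice lack the aryl hydrocarbon receptor in the whole body (the Ahr tm1Bra allele), and WT mice were C57BL/6J. Bone marrow of both genotypes was grown with GM-CSF at 10 ng/ml and TGF-β at 2 ng/ml in 10% serum. On day 6 the LPS cells received LPS, a bacterial cell wall component (97 EU/ml, 24 h), and the calcium ionophore A23187 followed at 5 µM for 10 min. The 6 libraries of a group came from 6 animals in 1 experiment, per the study's methods. The labels attach this text to every library, so whether unstimulated cells also received the ionophore cannot be read from them, and no age or sex is given per library.

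Acod1 encodes the mitochondrial enzyme that makes itaconate from cis-aconitate, an intermediate of the citric acid cycle, and is known for its strong induction in macrophages given LPS. Such macrophages are also known to take up more glucose and to run glycolysis to lactate. Glucose enters through GLUT1 (Slc2a1), is phosphorylated by the hexokinases (Hk1, Hk2, Hk3), passes phosphofructokinase (Pfkp), whose activator is made by Pfkfb3, and ends in pyruvate (Pkm) and lactate (Ldha), which leaves through MCT4 (Slc16a3).

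Counts in peaks ranged from 8.54 to 34.6 M per library. At the transcription start peaks of marker genes, all 8 macrophage markers (such as Adgre1, Spi1 and Csf1r) and all 4 alveolar macrophage markers had a peak. All 3 markers of stromal, endothelial and epithelial cells had one too (a sum of 27.1 to 38.4 CPM). Pax5, Cd4, Ly6g and Elane had none, while Mpo (1.26 to 8.4 CPM) and Cd3e (0.137 to 1.6 CPM) were low. No consensus peak covered exon 2 of Ahr, the exon this allele is known to lack, so the deletion itself could not be checked. None of the 10 genes lies on chromosome 12, which carries Ahr. CPM relate a peak's count to the library's total in peaks after TMM scaling, and in bulk libraries fewer cells with an open site cannot be told apart from less access per cell.

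A peak is named by its gene and the distance of its centre from the gene's annotated start, counted along the gene. Fold changes are on the log2 scale with their standard error, and adjusted p-values come from the quasi-likelihood test of edgeR, adjusted by Benjamini and Hochberg's method over 174193 peaks. A differentially accessible region (DAR) changed by 1.5-fold or more and had an adjusted p no higher than 0.05.

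The windows that the results turn on are printed first, from the reference genome (GRCm38.p6, the sequence behind mm10), plus strand, 5′ to 3′. They were chosen with their values known. Capitals mark matches to one of the motif letter strings searched on both strands, which were GCGTG (core of the AhR element), ACGTG (core of the hypoxia response element), TGANTCA (AP-1), TTGCNNAA (C/EBP), GGANTTTCC (NF-kB) and GAGGAAGT (PU.1). The hypoxia core matches on both strands of the palindrome CACGTG. The first is the sequence before the Acod1 start, chr14:103046762-103046976. The second is 4 copies of the repeat under the Acod1 +6.2 kb peak, chr14:103053076-103053183. The others are the central 300 bases of Hk2 +18 kb (chr6:82756274-82756573), which LPS opened in both genotypes, and of Pfkfb3 +32.4 kb (chr2:11521503-11521802), Slc2a1 -19.1 kb (chr4:119089448-119089747) and Pfkp +49.0 kb (chr13:6599619-6599918), which were lower in AhR-KO.
Acod1 promoter: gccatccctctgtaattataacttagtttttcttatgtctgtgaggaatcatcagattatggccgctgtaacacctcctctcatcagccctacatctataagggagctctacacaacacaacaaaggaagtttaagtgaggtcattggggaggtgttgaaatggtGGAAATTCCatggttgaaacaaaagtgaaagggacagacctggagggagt
Acod1 +6.2 kb: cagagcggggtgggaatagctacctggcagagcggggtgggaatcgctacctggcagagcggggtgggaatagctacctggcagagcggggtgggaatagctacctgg
Hk2 +18 kb: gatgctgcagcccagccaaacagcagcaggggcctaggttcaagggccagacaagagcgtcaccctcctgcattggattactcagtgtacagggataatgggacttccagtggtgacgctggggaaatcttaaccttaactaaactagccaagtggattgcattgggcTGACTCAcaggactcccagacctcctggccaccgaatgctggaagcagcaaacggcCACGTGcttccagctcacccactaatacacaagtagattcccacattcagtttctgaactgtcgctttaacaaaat
Pfkfb3 +32.4 kb: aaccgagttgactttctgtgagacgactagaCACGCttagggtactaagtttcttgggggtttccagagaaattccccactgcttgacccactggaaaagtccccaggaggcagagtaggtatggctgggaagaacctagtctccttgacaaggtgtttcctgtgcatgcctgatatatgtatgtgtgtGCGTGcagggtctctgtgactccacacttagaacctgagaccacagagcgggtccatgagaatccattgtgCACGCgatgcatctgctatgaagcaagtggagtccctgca
Slc2a1 -19.1 kb: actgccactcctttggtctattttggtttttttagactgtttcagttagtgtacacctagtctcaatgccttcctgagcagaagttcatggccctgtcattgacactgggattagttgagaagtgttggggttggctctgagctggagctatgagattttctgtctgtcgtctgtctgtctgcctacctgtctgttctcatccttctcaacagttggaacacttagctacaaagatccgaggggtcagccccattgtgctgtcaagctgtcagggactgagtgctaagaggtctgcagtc
Pfkp +49.0 kb: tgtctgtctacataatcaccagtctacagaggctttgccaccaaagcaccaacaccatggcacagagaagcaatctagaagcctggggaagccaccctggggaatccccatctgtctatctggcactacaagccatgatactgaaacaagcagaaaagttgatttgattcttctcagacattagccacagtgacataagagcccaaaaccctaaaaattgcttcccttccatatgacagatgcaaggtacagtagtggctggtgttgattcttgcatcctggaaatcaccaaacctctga

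Capitals in the Acod1 promoter are the NF-kB string, those in Hk2 +18 kb are AP-1 and CACGTG, and those in Pfkfb3 +32.4 kb are 3 AhR cores. Slc2a1 -19.1 kb and Pfkp +49.0 kb held none of the 6 strings in this window. Over the central 300 bases of 184060 consensus peaks, 16% held GCGTG, 14.1% ACGTG, 17.9% the AP-1 string, 15.7% the C/EBP string, 1.82% the NF-kB string and 7.34% the PU.1 string. Among the 165 peaks of the 10 genes the shares were 18.8%, 18.2%, 20.6%, 15.2%, 0.606% and 3.64% in the same order. A match describes the letters only.

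The start peaks of 9 of the 10 genes stayed within 1.5-fold between genotypes and with LPS, and Acod1 was the exception. The start peak of a gene was the one over an annotated start with the highest mean CPM over the 24 libraries. Without LPS 0 of 10 were DARs between genotypes, where 5.96% of the start peaks of all protein-coding genes were. With LPS 0 of 10 were again DARs between genotypes (6.72% of all), and with LPS against unstimulated 1 of 10 was a DAR in WT (10.4% of all) and 1 of 10 in AhR-KO (15.6% of all). The interaction, which compares the LPS response of AhR-KO with that of WT, called 0 of 10 (3.46% of all).

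**Figure D1:**
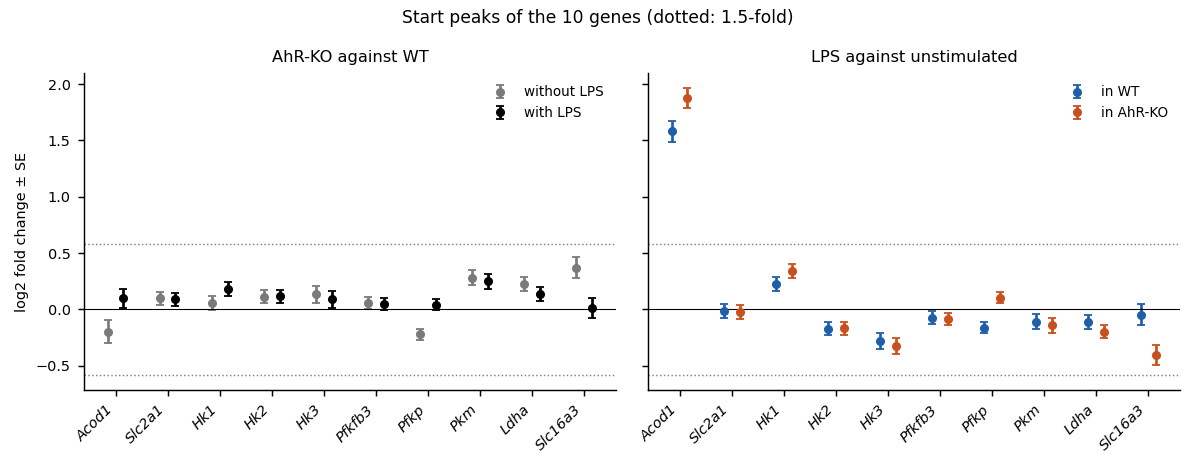
Log2 fold change with its standard error at the start peak of each of the 10 genes, AhR-KO against WT on the left and LPS against unstimulated on the right. Dotted lines mark 1.5-fold, and only Acod1 lies beyond them, at 1.58 in WT and 1.88 in AhR-KO with LPS.

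Acod1 had its start peak at chr14:103046469-103047694. It held 8.07 to 12.2 CPM in WT unstimulated (median 10.3) and 6.6 to 10.6 CPM in AhR-KO unstimulated (median 8.85). With LPS it held 26.5 to 33.7 CPM in WT (median 30.4) and 28.3 to 38.1 CPM in AhR-KO (median 32.4). All LPS libraries lay above all unstimulated ones, and the genotypes overlapped in both states. The LPS change was 1.58 ± 0.09 in WT (adjusted p 1.15e-16) and 1.88 ± 0.09 in AhR-KO (4.2e-19), and the interaction was 0.29 ± 0.13 (0.121).

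The other start peaks were more accessible per length than that of Acod1 before LPS. In WT unstimulated libraries the mean level was 46.4 CPM per kb at Slc2a1, 37.3 at Hk2, 34.1 at Pkm, 30.3 at Hk1, 28.1 at Pfkp, 20.03 at Slc16a3, 18.1 at Pfkfb3, 14.6 at Hk3 and 13.7 at Ldha, against 8.41 at Acod1. With LPS in WT, Acod1 reached 25 CPM per kb, close to the 25.2 of Pfkp. The start peaks of Hk1, Pfkfb3, Ldha and Slc16a3 lay at internal starts, 39.7, 51.9, 4.6 and 2.5 kb from the gene's outermost start.

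Slc2a1 gives an example of a start with no DAR. Its start peak (chr4:119108365-119109467) held 47.6 to 56.4 CPM in WT unstimulated, 49.2 to 66.3 in AhR-KO unstimulated, 48.0 to 56.0 in WT LPS and 48.0 to 57.9 in AhR-KO LPS, with medians of 50.7, 53.5, 50.1 and 54.5. All 4 groups overlapped, and the changes lay between -0.02 ± 0.06 and 0.10 ± 0.06. At Slc16a3 a neighbouring start peak at +0.4 kb (chr11:120948392-120949437) fell with LPS in WT, from 17.5 to 21.5 CPM (median 19) to 10.9 to 14.5 CPM (median 11.6), by 0.67 ± 0.09 on the log2 scale (adjusted p 9.24e-08). In AhR-KO it changed by -0.58 ± 0.09 (6.68e-07), just short of 1.5-fold.

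With LPS, the share of these peaks that opened in WT was close to that of all peaks, and the share that closed was below it in both genotypes. In WT, 45 of 159 peaks were higher with LPS (25.4% of all peaks tested) and 15 were lower (21.6% of all). In AhR-KO, 62 were higher (27.3% of all) and 17 lower (21.5% of all). As shares of the 159 these are 28.3% higher and 9.43% lower for WT and, for AhR-KO, 39% and 10.7%. The median log2 change of the 159 was 0.10 in WT and 0.41 in AhR-KO, against -0.014 and 0.046 over all tested peaks. Of the 159, 39 (24.5%) were higher in both genotypes, against 20.9% of all, and 12 (7.55%) were lower in both, against 15.7% of all. Calls in opposite directions numbered 0, against 0.192% of all. Start peaks of marker genes moved with LPS too. The sum over the 4 alveolar macrophage markers was 31.1 CPM or more in WT and 46.1 or more in AhR-KO without LPS, and 23.1 to 29.9 and 27.2 to 34.1 CPM with LPS. Mpo, a marker of neutrophils and their precursors, held at most 2.92 CPM without LPS and 4.57 CPM or more with it. The part of this in the LPS changes was not tested. The counts by gene differed in direction. In WT, Acod1 had 5 of 14 peaks higher (35.7%) and Hk2 had 8 of 22 (36.4%), against 25.4% of all. Both had 0 lower. Slc16a3 had 0 higher and 4 of 10 lower (40%), against 21.6% of all. Ldha had 0 higher and 2 of 10 lower (20%), a share near that of all.

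Acod1 +6.2 kb, an intronic peak (chr14:103052778-103053673), had the largest LPS change. Without LPS it held under 1 CPM in every library, from 0.116 to 0.971 CPM in WT (median 0.596) and from 0.176 to 0.565 in AhR-KO (median 0.41). With LPS it held 10.1 to 12.8 CPM in WT (median 11.3) and 10.2 to 20.6 in AhR-KO (median 17.5). The LPS libraries stood clear of the unstimulated ones in both genotypes, and those of AhR-KO spread more widely than those of WT. The LPS change was 4.22 ± 0.21 in WT (adjusted p 5.14e-17) and 5.4 ± 0.22 in AhR-KO (8.17e-20), with an interaction of 1.18 ± 0.38 (0.0345). Without the WT LPS replicates 1, 2 and 6 the interaction was 1.21 with an adjusted p of 0.0539.

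This Acod1 peak sits on a tandem repeat. The reference has about 19.7 copies of a 27-base unit over 533 of the 896 bases of the peak (chr14:103052900-103053432), and in its central window 96.3% of bases equalled the base 27 positions further on. No other of the 165 windows reached 80% at any period up to 60 bases. A peak was called from the library's own reads in 1 of 6 WT LPS and 3 of 6 AhR-KO LPS libraries, and in 0 unstimulated ones. How reads were placed within the repeat was not tested.

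Upstream of Acod1, peaks at -7.4, -6.0 and -4.0 kb were also higher with LPS in both genotypes. Acod1 -4.0 kb (chr14:103042890-103043124) went from 0.198 to 0.574 CPM (median 0.471) to 3.32 to 6.0 CPM (median 3.67) in WT, and from 0.212 to 0.511 (median 0.399) to 3.52 to 5.94 (median 3.97) in AhR-KO. The genotypes overlapped in both states, and LPS changed the peak by 3.30 ± 0.22 in WT (adjusted p 2.06e-15) and 3.42 ± 0.22 in AhR-KO (2.03e-16). Acod1 -7.4 kb (chr14:103039381-103039689) differed by genotype as well. It held 1.06 to 2.18 CPM in WT and 2.69 to 4.04 in AhR-KO without LPS (medians 1.88 and 3.06), and 2.18 to 4.62 and 3.72 to 7.14 with LPS (medians 3.19 and 5.76). AhR-KO was higher by 0.83 ± 0.20 without LPS (adjusted p 0.000998) and 0.76 ± 0.16 with LPS (0.000254), and the genotypes stood apart without LPS and overlapped with it.

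Acod1 +1.9 kb, over an exon (chr14:103048377-103049296), was the 1 Acod1 DAR lower in AhR-KO, without LPS. It held 14.2 to 20.7 CPM in WT (median 18.1) and 9.09 to 12.1 in AhR-KO (median 10.3), groups that did not overlap, with a difference of -0.77 ± 0.09 (adjusted p 2.09e-08). With LPS the values were 14.3 to 20.4 (median 17.6) and 13.8 to 18.6 (median 15.2), and the difference was -0.19 ± 0.09 (0.0726). The interaction had an adjusted p of 0.00174 at 0.58 ± 0.13, just under 1.5-fold.

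**Figure D2:**
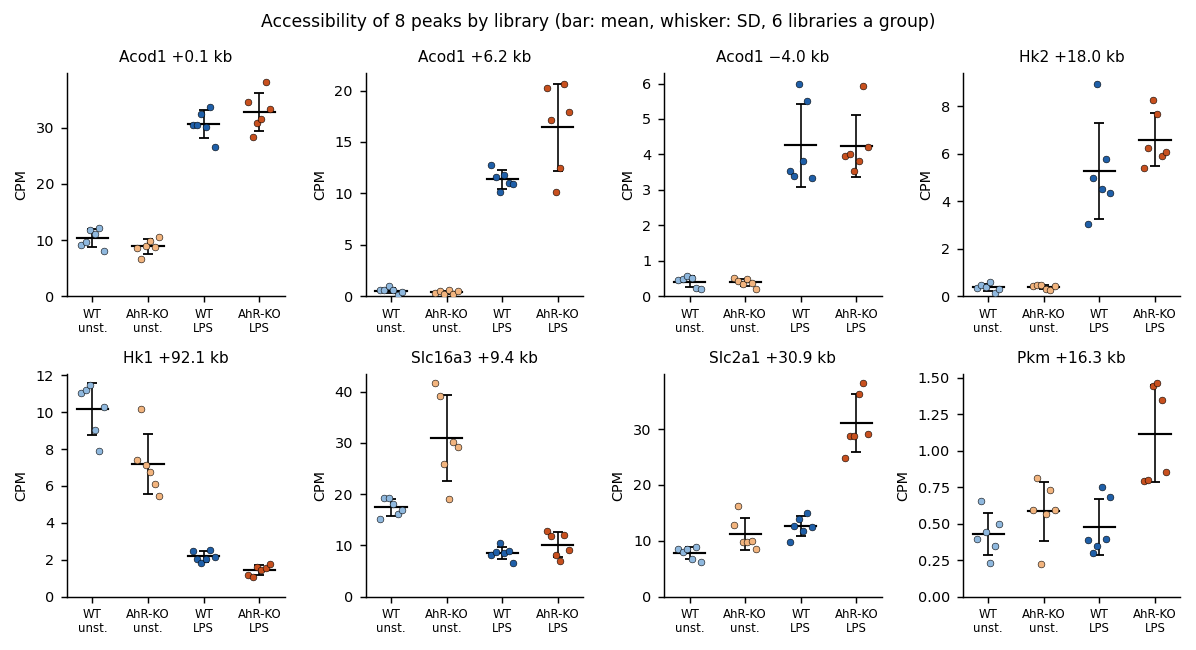
CPM of 8 peaks in every library (points), with the mean and SD of the 6 libraries of each group. Acod1 +6.2 kb, Acod1 -4.0 kb and Hk2 +18 kb lie under 1 CPM without LPS, Hk1 +92.1 kb and Slc16a3 +9.4 kb fall with LPS, and Slc2a1 +30.9 kb and Pkm +16.3 kb are highest in AhR-KO LPS.

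Among the hexokinases, Hk2, the form known to be induced in activated macrophages, had the largest LPS change. Hk2 +18 kb, an intronic peak (chr6:82756243-82756603), held 0.116 to 0.598 CPM in WT and 0.274 to 0.487 in AhR-KO without LPS (medians 0.364 and 0.428). It held 3.03 to 8.96 CPM in WT and 5.42 to 8.26 in AhR-KO with LPS (medians 4.76 and 6.17). LPS separated the groups in both genotypes, by 3.7 ± 0.25 in WT (adjusted p 4.25e-14) and 4.03 ± 0.24 in AhR-KO (6.93e-16), and the genotypes overlapped. Its printed window holds both the AP-1 string and CACGTG.

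Hk1, the housekeeping form, had an intronic peak that opened and another that closed. Hk1 +56.4 kb (chr10:62322957-62324152) rose from medians of 4.58 CPM in WT and 5.48 in AhR-KO to 18.5 (range 15.3 to 23.7) and 28.3 (23.1 to 30.3). The changes were 2.08 ± 0.10 (adjusted p 6.23e-19) and 2.29 ± 0.10 (2.78e-21). Hk1 +92.1 kb (chr10:62287556-62288150) fell from 7.91 to 11.5 CPM in WT (median 10.7) and 5.47 to 10.2 in AhR-KO (median 6.95) to 1.81 to 2.51 (median 2.1) and 1.05 to 1.78 (median 1.49). It fell by 2.24 in WT (SE 0.13, adjusted p 5.16e-17) and by 2.33 in AhR-KO (SE 0.14, 1.05e-16), with no overlap between states in either genotype. At Hk3, the myeloid form, LPS raised the peak at -1.4 kb by 0.77 ± 0.09 in WT (adjusted p 6.65e-10) and 0.64 ± 0.08 in AhR-KO (1.3e-08).

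The phosphofructokinase step showed the same mixture. Pfkp +34.6 kb (chr13:6613891-6614530), over an exon, rose from medians of 2.53 CPM in WT and 3.44 in AhR-KO to 17.1 and 19.9, by 2.79 ± 0.12 (adjusted p 2.54e-21) and 2.52 ± 0.11 (2.07e-21). Pfkp +33.2 kb rose by 3.30 ± 0.22 and 3.28 ± 0.19. At Pfkfb3, 9 peaks were higher and 5 lower with LPS in WT. Pfkfb3 +29.6 kb (chr2:11523690-11525178) rose from 14 to 20.1 CPM (median 14.8) to 29.9 to 37.6 (median 32.5) in WT, and from 13.3 to 16.8 (median 14.4) to 26.6 to 29.8 (median 27.5) in AhR-KO, without overlap between states.

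Slc2a1 +44.0 kb, beyond the glucose transporter gene (chr4:119152350-119153114), opened from medians of 0.439 CPM in WT and 0.378 in AhR-KO to 3.88 (2.35 to 4.95) and 2.66 (2.16 to 3.57), by 3.01 ± 0.22 (adjusted p 1.57e-14) and 2.87 ± 0.22 (6.57e-14). Slc2a1 +22.7 kb, intronic, went the other way, from medians of 14.8 and 18.5 CPM to 5.42 and 7.39. It fell by 1.37 in WT (SE 0.10, adjusted p 6.17e-14) and by 1.39 in AhR-KO (SE 0.10, 1.24e-14).

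At the lactate end of the pathway no peak was a DAR higher with LPS. Ldha had 2 peaks that fell in both genotypes, and both overlap Ldhc, the neighbouring testis lactate dehydrogenase gene. Slc16a3 +9.4 kb, over an exon (chr11:120957484-120958305), held 15.1 to 19.2 CPM in WT and 19.1 to 41.8 in AhR-KO without LPS (medians 17.5 and 29.6), and 6.58 to 10.4 and 6.97 to 12.8 with LPS (medians 8.56 and 10.4). It fell by 1.04 in WT (SE 0.17, adjusted p 7.25e-06) and by 1.6 in AhR-KO (SE 0.16, 3.8e-09), and without LPS it was higher in AhR-KO by 0.81 ± 0.16 (0.000212). Pkm, which makes pyruvate, had 1 peak higher with LPS in both genotypes, over an exon at +2.2 kb, which changed by 1.34 ± 0.15 in WT (adjusted p 8.26e-10) and 0.96 ± 0.15 in AhR-KO (4.24e-07).

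**Figure D3:**
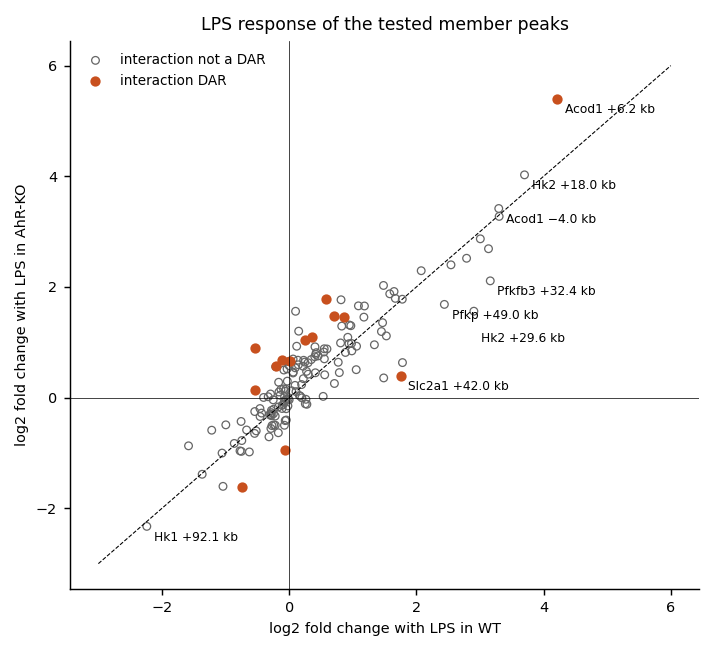
Log2 fold change with LPS in WT (horizontal) and in AhR-KO (vertical) for the 159 tested peaks, with the line of equal change dashed and interaction DARs filled. Acod1 +6.2 kb, Hk2 +18 kb and Acod1 -4.0 kb lie high in both, while Pfkfb3 +32.4 kb (3.16 and 2.11), Hk2 +29.6 kb (2.90 and 1.56) and Slc2a1 +42.0 kb (1.76 and 0.39) lie below the line.

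Between genotypes without LPS, 13 of 159 peaks were higher in AhR-KO (9.95% of all peaks tested) and 14 were lower (12.6% of all). With LPS, 36 were higher (13.4% of all) and 14 lower (13.1% of all). As shares of the 159 this is 8.18% and 8.81% without LPS, and 22.6% and 8.81% with LPS, and the median difference was 0.09 and 0.12, against -0.021 and 0.021 over all tested peaks. No peak was called in opposite directions without and with LPS (0.137% of all), 7 (4.4%) were lower in both states (6.95% of all), and 6 (3.77%) were higher in both (5.08% of all). Macrophage marker start peaks moved with genotype as well. Without LPS the sum over the 8 macrophage markers was 192 to 211 CPM in WT and 231 to 310 CPM in AhR-KO, and that over the 4 alveolar macrophage markers was at most 41.05 CPM in WT and at least 46.1 CPM in AhR-KO. Taken singly without LPS, Spi1, Itgam, Itgax and Mertk were apart between genotypes, whereas Adgre1, Csf1r, Cd68 and Lyz2 overlapped. Of the alveolar markers, Siglecf and Car4 were apart and Pparg and Marco overlapped. With LPS the genotypes overlapped in both sums. The part of this in the differences between genotypes was not tested.

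Among the peaks lower in AhR-KO in both states, Slc2a1 -19.1 kb (chr4:119089190-119090004) had the largest difference without LPS. It held 1.99 to 4.21 CPM in WT and 0.424 to 1.01 in AhR-KO (medians 3.08 and 0.725), and with LPS 2.81 to 8.19 and 1.04 to 2.75 (medians 4.89 and 1.62). The genotypes did not overlap in either state, with -2.10 ± 0.30 (adjusted p 2.16e-06) and -1.64 ± 0.24 (2.17e-06). LPS raised it in both genotypes, by 0.83 ± 0.23 in WT (adjusted p 0.00258) and 1.29 ± 0.31 in AhR-KO (0.000625), although without the WT LPS replicates 1, 2 and 6 the change in WT was 0.34 (0.176). With the unstimulated WT replicates of those numbers left out as well it was 0.64 and a DAR, and without LPS those 3 held 3.17, 3.23 and 4.21 CPM.

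Pfkfb3 +8.9 kb (chr2:11544250-11546200), a bright intronic peak, was lower both in AhR-KO and with LPS. It held 18.4 to 26.4 CPM in WT unstimulated, 11.7 to 13 in AhR-KO unstimulated, 11.2 to 14.1 in WT LPS and 5.64 to 6.86 in AhR-KO LPS, with medians of 20.9, 12.3, 12.6 and 6.36. The difference of AhR-KO from WT was -0.81 ± 0.08 without LPS (adjusted p 1.78e-10) and -1.0 ± 0.08 with LPS (6.61e-12). LPS changed it by -0.77 ± 0.08 in WT (5.15e-11) and -0.96 ± 0.08 in AhR-KO (1.06e-12), and no pair of groups compared overlapped. The interaction was -0.19 ± 0.11 (adjusted p 0.27). Ldha +30.7 kb, inside Ldhc, differed by -1.28 ± 0.21 without LPS (5.7e-06) and -1.25 ± 0.23 with LPS (2.89e-05). Pkm +41.7 kb, inside Gramd2, held at most 2.18 CPM and differed by -1.63 ± 0.27 (7.85e-06) and -0.92 ± 0.33 (0.0207).

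Peaks higher in AhR-KO in both states included Pfkp -9.5 kb (chr13:6658105-6658482). It held 0.486 to 1.68 CPM in WT and 1.96 to 3.25 in AhR-KO without LPS (medians 0.856 and 2.53), apart from each other, and 0.316 to 1.05 and 0.977 to 1.96 with LPS (medians 0.956 and 1.61), overlapping. The differences were 1.38 ± 0.25 (adjusted p 3.14e-05) and 0.99 ± 0.24 (0.00122). Hk3 -3.0 kb (chr13:55024182-55024551) was higher by 0.74 ± 0.13 (2.73e-05) and 0.74 ± 0.12 (5.82e-06), with no overlap in either state. Slc2a1 +10.2 kb, intronic (chr4:119118648-119119270), had the smallest adjusted p without LPS, at 8.49 to 11.1 CPM in WT (median 9.87) and 17.5 to 21.4 in AhR-KO (median 18.9), with 0.94 ± 0.08 (2.3e-11). With LPS it stayed apart, at 9.17 to 10.8 and 12.1 to 16.8 CPM (medians 9.35 and 14.9), with 0.58 ± 0.08 (2.08e-07), just under 1.5-fold.

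With LPS the peaks higher in AhR-KO lay most often over exons and at gene ends. Of the 33 tested peaks over an exon of a protein-coding gene and no start, 16 (48.5%) were higher in AhR-KO, against 11.7% of all such peaks in the series, and 1 was lower. Of the 21 at a gene end, from 1 kb before to 5 kb past an annotated 3′ end and over no start, 13 (61.9%) were higher against 11.2% of all such peaks, and 0 were lower. The medians were 0.50 and 0.70 on the log2 scale, against 0.004 and 0.03 over all such peaks. The genotypes did not overlap at 7 of the 17 exon DARs and 5 of the 13 gene-end DARs, which was not counted over all peaks. Some were faint in AhR-KO LPS. Means there were 0.74 to 0.84 CPM at Hk1 +111.4 kb, Hk1 +114.0 kb, Pfkp +67.1 kb and Pfkp +68.2 kb. They were 0.66 CPM at Hk2 +47.2 kb and 0.87 CPM at Hk2 +47.5 kb. Slc16a3 +12.1 kb held 0.789 to 1.1 CPM in that group. Without LPS the same classes had 3 of 33 higher, against 10.3% of all exon peaks, and 4 of 21, against 9.94% of all gene-end peaks. Both classes were drawn up with the values known, some peaks count in both, and peaks of 1 gene share that gene, so these shares are descriptions.

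Slc2a1 +30.9 kb, over the 3′ end of the glucose transporter gene (chr4:119137652-119141650) was one of them. It held 6.14 to 8.84 CPM in WT unstimulated (median 8.23), 8.56 to 16.2 in AhR-KO unstimulated (median 9.84), 9.71 to 14.9 in WT LPS (median 12.6) and 24.8 to 38.4 in AhR-KO LPS (median 29). AhR-KO LPS libraries lay above all others, the difference with LPS was 1.30 ± 0.13 (adjusted p 4.38e-09), and the interaction was 0.78 ± 0.19 (0.00726), which was not called without WT replicates 1, 2 and 6 of both states (0.69, 0.109). Inside the same gene, Slc2a1 +7.4 kb, over an exon, and +8.8 kb, intronic, were higher with LPS by 0.76 ± 0.11 (3.44e-07) and 1.2 ± 0.13 (3.09e-09), while the start peak differed by 0.09 ± 0.06. Their interactions were 0.80 ± 0.16 (0.000641) and 0.74 ± 0.21 (0.0116), the second of which was lost without the WT LPS replicates 1, 2 and 6 (0.52, adjusted p 0.0965).

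Hk2 had such a peak too. Hk2 +51.6 kb, just past the end of Hk2 (chr6:82721224-82724490), held 3.0 to 4.67 CPM in WT LPS and 5.92 to 11 in AhR-KO LPS (medians 3.51 and 8.23), which did not overlap, against medians of 2.87 and 3.9 without LPS. The difference with LPS was 1.25 ± 0.16 (adjusted p 1.95e-07), and the interaction of 0.78 ± 0.25 (0.0288) was lost without the same 3 libraries (0.66, 0.118). Hk3 +17.7 kb (chr13:55001617-55005851), which covers a start of the neighbouring gene Unc5a and is in neither class, held 4.79 to 6.66 and 7.63 to 13.2 CPM with LPS (medians 6.32 and 11.2), with 0.86 ± 0.12 (4.45e-07).

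Hk1 +111.4 kb and +112.9 kb were higher by 1.46 ± 0.38 (0.00196) and 1.24 ± 0.24 (0.000102), at medians of 0.706 and 2.25 CPM in AhR-KO LPS, and their genotypes overlapped. Pkm +16.3 kb, over an exon and picked out after its values were seen, held 0.3 to 0.749 CPM in WT LPS and 0.789 to 1.47 in AhR-KO LPS (medians 0.391 and 1.1), which did not overlap, with 1.21 ± 0.25 (0.00016). Pkm +23.4 kb, over the end of Pkm and a start of Gramd2 and so in neither class (chr9:59678427-59681041), held 13.9 to 16.5 CPM in WT LPS and 23.2 to 32.3 in AhR-KO LPS (medians 14.8 and 24.8), with 0.81 ± 0.11 (4.41e-07). Slc16a3 +13.7 kb, over Csnk1d, was higher by 1.10 ± 0.20 (5.16e-05).

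At Acod1 itself the peak with the highest CPM lay just past the gene, Acod1 +11.3 kb (chr14:103056648-103059951), which was picked out after its values were seen. Per length others were brighter, with means of 70.7 CPM per kb at Acod1 -9.7 kb and 26.6 at +11.3 kb in WT unstimulated. The +11.3 kb peak is the subject here. It held 81.2 to 106 CPM in WT unstimulated and 92.9 to 108 in AhR-KO unstimulated (medians 84.1 and 102), and 110 to 128 in WT LPS and 139 to 193 in AhR-KO LPS (medians 114 and 175). The genotypes were apart with LPS, by 0.55 ± 0.07 (adjusted p 3.53e-07), under 1.5-fold, and LPS raised it by 0.40 ± 0.07 in WT and 0.74 ± 0.07 in AhR-KO. In AhR-KO LPS the replicates 3 and 4 were the lowest at both Acod1 +6.2 kb and +11.3 kb, with 10.2 and 12.4 CPM at the first and 139 CPM at the second. They were also the lowest of that group at the start peaks of 7 of the 8 macrophage markers, Mertk being the other, and the sum over the 8 was 171 and 183 CPM there and 194 to 236 CPM in the other replicates. The part of this in the Acod1 values was not tested.

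**Figure D4:**
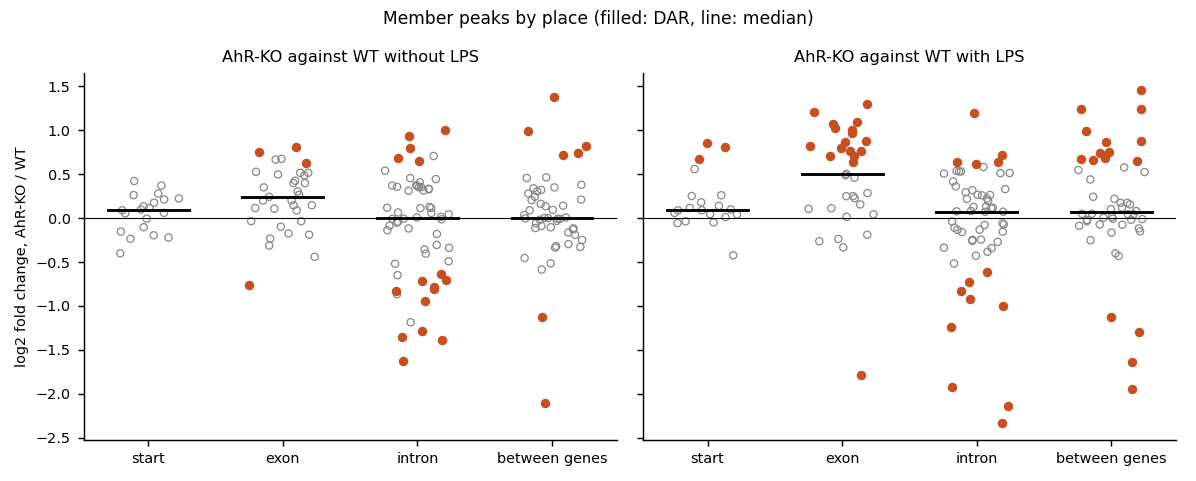
Log2 fold change of AhR-KO against WT for each tested peak, without LPS (left) and with LPS (right), split into peaks over a start, over an exon, in an intron and between genes. Filled points are DARs and lines are medians, which for exon peaks lie at 0.24 without LPS and 0.50 with LPS.

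A second set of peaks opened with LPS in WT and was lower in AhR-KO with LPS. There were 8 (5.03% of the 159, against 4.41% of all), Slc2a1 -19.1 kb and +42.0 kb, Hk1 +27.2 kb, Hk2 -12.4 kb and +29.6 kb, Pfkfb3 +32.4 kb, Pfkp +49.0 kb and Pkm +31.2 kb, with differences from -2.33 to -0.73. Pfkp +49.0 kb, intronic (chr13:6599392-6600145), held 1.28 to 3.37 CPM in WT unstimulated, 0.658 to 1.35 in AhR-KO unstimulated, 6.09 to 19.9 in WT LPS and 2.36 to 4.06 in AhR-KO LPS, with medians of 2.18, 0.824, 14 and 2.78. The genotypes did not overlap with LPS, at -2.14 ± 0.25 (adjusted p 1.67e-07). LPS raised the peak by 2.44 ± 0.26 in WT (1.75e-08) and 1.69 ± 0.33 in AhR-KO (8.76e-05). The interaction was -0.76 ± 0.44 (0.268).

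Pfkfb3 +32.4 kb (chr2:11521357-11521947), whose window holds 3 AhR cores, behaved alike. It held 0.33 to 1.0 CPM in WT unstimulated, 0.263 to 0.541 in AhR-KO unstimulated, 2.67 to 9.52 in WT LPS and 0.977 to 2.62 in AhR-KO LPS (medians 0.651, 0.37, 5.96 and 1.51), with -1.92 ± 0.24 between genotypes with LPS (adjusted p 1.85e-07). This peak was singled out after its values were seen. Slc2a1 +42.0 kb (chr4:119150450-119150961) was the 1 peak of the set with a called interaction, at -1.36 ± 0.42 (0.0273). It held 1.21 to 4.83 CPM in WT LPS and 0.722 to 0.932 in AhR-KO LPS (medians 3.44 and 0.802), against medians of 0.947 and 0.647 without LPS. Hk1 +27.2 kb, at most 1.66 CPM, had the largest difference of the 8 with LPS, -2.33 ± 0.34 (5.89e-07). Its LPS change in WT, 1.78, was not called without WT replicates 1, 2 and 6 of both states (1.01, adjusted p 0.0742).

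All of these 8 peaks but Pkm +31.2 kb (1.4 to 1.96 CPM) spread widely within the 6 WT LPS libraries, and the libraries that were high were the same ones. In 7 of the 8, and in 22 of all 159 tested peaks, replicates 1, 2 and 6 held the 3 highest values. Pfkp +49.0 kb, for example, held 16.5, 19.9 and 17.2 CPM there and 6.09, 11.6 and 7.46 in replicates 3, 4 and 5. Dendritic cells are another cell type that grows from marrow given GM-CSF. The start peaks of their markers Flt3 and Ccr7 ran alongside, each highest in replicates 1, 2 and 6. That of Zbtb46 did not, since its lowest WT LPS value was in replicate 1. All 3 markers (Flt3, Zbtb46 and Ccr7) had a start peak. Their sum was 38.4, 42.7 and 45.2 CPM in WT LPS replicates 1, 2 and 6 and 28.3, 34.4 and 30.7 in replicates 3, 4 and 5. It ranged from 28.3 to 45.2 CPM in WT LPS and from 20.01 to 25.9 in AhR-KO LPS, against 25.7 to 34.5 and 26.6 to 32.6 without LPS. Ccr7 alone held 3.27 to 10.5 CPM in WT LPS and 1.75 to 4.47 in AhR-KO LPS, and Flt3 8.12 to 15.2 and 3.75 to 5.06. Without LPS, Flt3 held 5.93 to 12.1 CPM in WT and 2.96 to 4.57 in AhR-KO. Zbtb46 went the other way without LPS, with 19.1 to 23.4 CPM in WT and 22.3 to 27.7 in AhR-KO, and overlapped with LPS, with 15.5 to 21.9 and 13.2 to 18 CPM. With replicates 1, 2 and 6 left out, an alternative added after seeing the data, 7 of the 8 peaks were still DARs lower in AhR-KO with LPS, at -1.65 to -0.64, and Hk2 -12.4 kb was not (-0.69, adjusted p 0.164). In that fit Slc2a1 +42.0 kb lost its interaction (-0.69, adjusted p 0.18). The part of these cells in the differences was not tested.

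**Figure D5:**
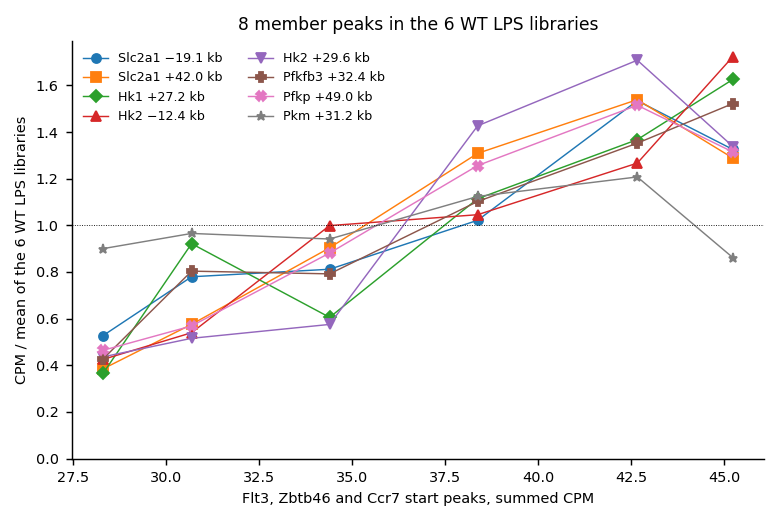
CPM of the 8 peaks in each of the 6 WT LPS libraries, divided by the peak's mean over them (vertical), against the summed CPM of the start peaks of Flt3, Zbtb46 and Ccr7 (horizontal). The 3 libraries at 38.4 to 45.2 CPM on the horizontal axis hold the highest values of all peaks but Pkm +31.2 kb.

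The interaction called 11 of 159 peaks higher (5.83% of all peaks tested) and 3 lower (4.58% of all), at a share of 6.92% and 1.89%. Hk1 +50.6 kb (chr10:62329032-62329485) had the largest interaction, 1.44 ± 0.31 (adjusted p 0.00142). It held 0.931 to 3.43 CPM in WT and 0.381 to 1.0 in AhR-KO without LPS (medians 1.86 and 0.813), and 1.03 to 1.76 and 0.897 to 1.76 with LPS (medians 1.38 and 1.48). The genotypes overlapped in both states, and the difference without LPS was -1.36 ± 0.23 (1e-05).

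Pfkp +6.1 kb (chr13:6642489-6642817) had a like pattern, at 8.14 to 11.9 CPM in WT and 4.65 to 5.97 in AhR-KO without LPS (medians 9.63 and 4.88), apart from each other, and 5.93 to 7.49 and 4.92 to 6.24 with LPS (medians 6.88 and 5.6). Its difference was -0.94 ± 0.09 without LPS (adjusted p 4.67e-10) and -0.26 ± 0.09 with LPS (0.0198), with an interaction of 0.68 ± 0.13 (0.000491). Pkm +35.7 kb, inside Gramd2, and Slc16a3 -18.3 kb, inside Ccdc57, had interactions of -0.88 ± 0.17 (0.000587) and -0.87 ± 0.25 (0.0152). With LPS they changed by -0.94 and -1.62 in AhR-KO, and by -0.06 and -0.75 in WT. Without the WT LPS replicates 1, 2 and 6 the change of Slc16a3 -18.3 kb in WT was -0.44, no longer a DAR, and its difference between genotypes with LPS went from -0.43 (adjusted p 0.0584) to -0.71 (0.00279).

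The other genes of these pathways were taken with the same window and described by counts. Around 12 other glycolytic enzymes, 109 tested peaks held 13 higher and 14 lower with LPS in WT (11.9% and 12.8%), with 20 and 17 for AhR-KO (18.3% and 15.6%). These shares were below those of all peaks given above (25.4% and 21.6%, then 27.3% and 21.5%). Around 12 carriers and regulators, 124 peaks held 27 higher (21.8%) and 24 lower (19.4%) in WT, with 35 (28.2%) and 30 (24.2%) for AhR-KO. Around 13 genes of citrate, aconitate and itaconate turnover, 159 peaks held 21 higher (13.2%) and 46 lower (28.9%) in WT, with 18 (11.3%) and 44 (27.7%) for AhR-KO. Between genotypes with LPS, the lists held in the same order 16 higher and 4 lower (14.7% and 3.67%), 17 and 10 (13.7% and 8.06%), and 11 and 13 (6.92% and 8.18%), against 13.4% and 13.1% of all peaks.

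The genes whose start peak followed that of Acod1 most closely over the 24 libraries, among 14290, were Traf1 (Pearson r = 0.984), Slc1a2 (0.983), Il12a (0.983), C1s1 (0.98) and Serpinb2 (0.978). The points share the 4 groups, so r is a description of these 24 libraries. Traf1 held means of 7.66 and 7.81 CPM in WT and AhR-KO without LPS and 32.1 and 33.8 with LPS.

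Of the 14 peaks lower in AhR-KO with LPS, 3 (21.4%) held GCGTG in the central window, and of the 36 higher 6 (16.7%) did, against 16% of all peaks. Without LPS the order was the other way, with 2 of the 14 lower (14.3%) and 3 of the 13 higher (23.1%). Of the 45 peaks higher with LPS in WT, 15 (33.3%) held the AP-1 string, and of the 15 lower 0 did, against 17.9% of all. The NF-kB string stood in 1 of those 45. In AhR-KO, 15 of the 62 peaks higher with LPS (24.2%) held the AP-1 string, and 0 of the 17 lower did. In the 250 bases before the RefSeq start, all 10 genes could be searched, and Acod1 was the 1 with the NF-kB string, which 1.07% of 32851 promoters held. Ldha had 5 matches to ACGTG on either strand, Hk2 and Slc16a3 had 2 each, and Acod1, Slc2a1, Hk3 and Pfkfb3 had 1 each. The Acod1 match lies past the printed 215 bases, which end before the start annotated by GENCODE. GCGTG had 3 matches at Pfkp and 1 at Slc2a1. Of all promoters, 16.6% held ACGTG and 28.2% held GCGTG.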

How the data were processed

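ATAC-seq libraries of 24 BMDM cultures (4 groups of 6) were analysed. The authors ran the nf-core atacseq workflow on mm10, called broad peaks with MACS2 in each library, merged them to a consensus and counted reads per consensus peak with featureCounts, and the deposited values are raw counts. Reads had been demultiplexed with bcl2fastq 2.20.0, and the deposited broad peak lists, with MACS2's -log10 q-values made per library by the authors, were used only to see in which libraries a peak was called.

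Peaks passing edgeR's filterByExpr by group (174193) were scaled by TMM (factors 0.976 to 1.04) and fitted over all 24 libraries with edgeR 4.0.16 (quasi-likelihood, robust) in R 4.3.3, which gave 5 comparisons. Peaks were assigned by the GENCODE vM21 annotation. Tables and plots were made with Python 3.11.15, pandas 2.3.3 and matplotlib 3.10.9, and the fit was tested on simulated data. Total counts of 8.54 to 34.6 M set the precision, which is lowest for peaks under 1 CPM.

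The 10 genes, the other lists and the markers were chosen with earlier results of these data known. Peaks named by rule were each gene's start peak, its DAR with the smallest p in each comparison, and the 3 higher and 3 lower DARs with the largest change in each comparison. Alternatives were RLE size factors, no filter, DESeq2 1.42.0, the replicate number as a block, other minimum folds, a window of 5 kb, only the groups compared, and libraries left out. Assignment by nearness does not show which gene a peak acts on.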

Additional observations from a re-analysis of the deposited data

Results flagged for a closer look

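Single libraries stood apart from the other 5 of their group, by Dixon's ratio, in 11 of the 216 groups tested over the named peaks, and chance alone marks about 1 in 20 groups. AhR-KO LPS replicate 5 was high at 4 peaks, Acod1 -4.0 kb (5.94 CPM, the others 3.52 to 4.22), Acod1 +1.9 kb (18.6 CPM, the others 13.8 to 15.4), Slc2a1 +7.4 kb (11.6 CPM, the others 7.86 to 9.22) and Hk3 -1.4 kb (16.4 CPM, the others 12.4 to 13.8). AhR-KO unstimulated replicate 2 was high at Slc2a1 +0.2 kb (66.3 CPM, the others 49.2 to 54.3) and Hk1 +111.4 kb (0.595 CPM, the others 0.0878 to 0.236). WT LPS replicate 5 was high at Hk1 +112.9 kb (1.57 CPM, the others 0.718 to 1.03) and Hk2 +51.6 kb (4.67 CPM, the others 3.0 to 3.55). At Ldha +21.6 kb, AhR-KO unstimulated replicate 3 was high (3.47 CPM, the others 1.78 to 2.37) and WT LPS replicate 3 was low (0.574 CPM, the others 1.69 to 2.25). AhR-KO LPS replicate 6 was low at Hk1 +39.7 kb (60.03 CPM, the others 67.2 to 70.3).

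The LPS response differed between genotypes, by the interaction term of edgeR's quasi-likelihood test, at 12 named peaks. The log2 change with LPS was more positive in AhR-KO at Hk1 +50.6 kb (1.44, adjusted p 0.00142), Hk1 +112.9 kb (1.2, 0.0494), Acod1 +6.2 kb (1.18, 0.0345), Slc2a1 +7.4 kb (0.80, 0.000641), Slc2a1 +30.9 kb (0.78, 0.00726), Hk2 +51.6 kb (0.78, 0.0288), Slc2a1 +8.8 kb (0.74, 0.0116), Pfkp +6.1 kb (0.68, 0.000491) and Hk3 +17.7 kb (0.59, 0.0314). Among these, the WT median fell with LPS and that of AhR-KO rose at Slc2a1 +7.4 kb, Hk1 +50.6 kb and Pfkp +6.1 kb. At Pfkp +6.1 kb WT moved further, from 9.63 to 6.88 CPM, against 4.88 to 5.6 CPM in AhR-KO. The log2 change was smaller, or further below 0, in AhR-KO at Slc2a1 +42.0 kb (-1.36, 0.0273), Pkm +35.7 kb (-0.88, 0.000587) and Slc16a3 -18.3 kb (-0.87, 0.0152).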

How the results depend on the processing

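With no minimum fold the peaks called among the 159 went from 27 to 66 and from 50 to 88 between genotypes without and with LPS, from 60 to 101 with LPS in WT, from 79 to 114 in AhR-KO and from 14 to 31 for the interaction. With a minimum fold of 2 they were 8, 20, 35, 40 and 4 in the same order. RLE size factors, no filter, DESeq2, the window of 5 kb, only the groups compared, and leaving out WT unstimulated replicate 5 or the WT LPS replicates 1, 2 and 6 kept each of these totals within 1.5 times. The window of 5 kb left 116 peaks and moved the lower peaks by more, from 14 to 9 and from 14 to 7 between genotypes without and with LPS, from 15 to 8 with LPS in WT, from 17 to 8 in AhR-KO and from 3 to 0 for the interaction. Without WT replicates 1, 2 and 6 of both states, chosen after seeing the data, the interaction called 7 in place of 14, and the other totals stayed within 1.5 times. No called change of a named peak turned direction under these alternatives. Without the WT LPS replicates 1, 2 and 6 the named peaks lost 9 calls and gained 2, among them the interactions of Acod1 +6.2 kb, Slc2a1 +8.8 kb, Slc2a1 +42.0 kb, Hk1 +112.9 kb and Hk2 +51.6 kb. Without those of both states 15 calls were lost and 1 was gained, the interactions of Slc2a1 +30.9 kb, Hk3 +17.7 kb (0.68, adjusted p 0.0995) and Pfkp +6.1 kb (0.58, 0.02, just under 1.5-fold) and the LPS change of Slc16a3 +0.4 kb in WT (-0.57, 0.000437, likewise) among the losses. Fewer samples were fitted in both. The interaction of Hk3 +17.7 kb (0.59) was also lost with RLE size factors (0.55), with DESeq2 (0.55) and without WT unstimulated replicate 5 (0.52, adjusted p 0.0581), and that of Hk1 +112.9 kb (1.2) with RLE size factors (adjusted p 0.0594), with no filter (0.051) and without replicate 5 (0.0836).

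With the replicate number as a block the counts were 28, 51, 60, 79 and 15. This block joined same-numbered libraries of both genotypes, so it does not test pairing within a genotype. Same-numbered libraries did not deviate together in every pair. For WT without and with LPS the median correlation was 0.205 (other numbers, -0.0557), with 5 of 6 pairs over 0.1. For AhR-KO it was 0.0581 (other numbers, -0.00448), with 2 of 6. Between genotypes the median correlation was 0.0172 without LPS and 0.0394 with LPS. Within a genotype, the best match was the own number for 4 of 6 in WT and 3 of 6 in AhR-KO. Sharing was thus clearer in WT, and the main fit did not read the numbers as pairs. Differences in peaks under 1 CPM are the least precise.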
